A study of Mus musculus with 4 samples.

Results

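Transcript levels of 9 growth factor genes were read in 4 RNA-seq libraries of mouse cultured microglia. The genes were taken by symbol from the deposited count files, 9 of the 56832 genes listed, and are the neurotrophins Bdnf and Ntf3, the GDNF family founder Gdnf, the platelet-derived growth factors Pdgfa and Pdgfb, the vascular endothelial growth factors Vegfa and Vegfb, Hgf and Fgf2. All 9 were in the files, and none was dropped. The question was which of them these cells transcribe and which lie at the limit of counting.

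The 4 libraries form 1 group with no contrast. Per the labels they are endogenous microglia from primary glial culture of C57BL/6 mice labelled female, without a stated age, genotype change or agent, released with trypsin and sorted by flow cytometry. Neither gate nor antibody is named for the sort. Whether the libraries stem from separate cultures or animals is not stated, so SDs and p-values cover variation among these 4 libraries alone, and that variation could be technical. The series sets such cells beside cultured blood stem and progenitor cells, alone or with glia, and those groups were not analysed here.

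The libraries held 23212183 to 28469813 counts on genes, and no pair of libraries was identical. Levels scaled to library size are given as CPM. Of 12 microglial markers all reached 1 CPM in every library, and their summed level was 18527 to 19466 CPM. The sums were 305 to 515 CPM for 12 astrocyte markers, 252 to 277 for 10 of the oligodendrocyte lineage, 103 to 131 for 10 endothelial, 80.6 to 111 for 10 mural and fibroblast and 11.7 to 14.3 for 8 neuronal markers. A few genes carried much of each of these sums. Mean CPM was 214 for Clu among astrocyte markers, and 110 for Mbp and 107 for Cnp in the oligodendrocyte lineage. It was 72.1 for Flt1 and 29.5 for Slco1a4 among endothelial, 54.8 for Acta2 among mural and fibroblast, and 12.3 for Map2 among neuronal markers. Transcripts of Xist (253 to 341 CPM) and of the Y-linked Ddx3y (30.0 to 41.5 CPM) were both present in every library, although the label says female. In bulk RNA, fewer cells of a type and less RNA per cell cannot be told apart.

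Growth factors of these families are secreted proteins that act through receptor tyrosine kinases on neighbouring cells. Neurotrophins bind Trk receptors and the shared receptor p75, and GDNF binds a GFRα coreceptor that recruits Ret. PDGF chains act on oligodendrocyte precursors and mural cells, VEGF proteins on vessels, HGF on Met, and FGF2 on FGF receptors with heparan sulfate as a cofactor. In the brain, neurons and astrocytes are well-known sources of many of these factors, and microglia are described as a source of several.

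Promoter sequences are shown for 4 of the genes to set a gene with many copies of CG, a TATA box gene and the genes between them side by side. RefSeq promoter windows matched 8 of the 9 genes, all but Pdgfb, and a window here is the 250 bases before an annotated start, on GRCm38.p6, another build than the one the authors used. The windows are Vegfb at chr19:6987652-6987901 (minus strand), Fgf2 at chr3:37348403-37348652 (plus strand), the most upstream of 2 Vegfa windows at chr17:46032378-46032627 (minus strand) and the most upstream of 2 Gdnf windows at chr15:7809798-7810047 (plus strand). Capitals mark the GC box (GGGCGG or its reverse complement CCGCCC) and the TATA box (TATAAA or TTTATA), searched on both strands.
Vegfb: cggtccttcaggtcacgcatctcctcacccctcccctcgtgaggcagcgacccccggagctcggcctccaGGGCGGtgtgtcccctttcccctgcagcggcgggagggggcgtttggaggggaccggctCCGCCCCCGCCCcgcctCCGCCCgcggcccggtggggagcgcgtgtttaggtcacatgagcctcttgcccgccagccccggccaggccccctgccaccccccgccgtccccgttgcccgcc
Fgf2: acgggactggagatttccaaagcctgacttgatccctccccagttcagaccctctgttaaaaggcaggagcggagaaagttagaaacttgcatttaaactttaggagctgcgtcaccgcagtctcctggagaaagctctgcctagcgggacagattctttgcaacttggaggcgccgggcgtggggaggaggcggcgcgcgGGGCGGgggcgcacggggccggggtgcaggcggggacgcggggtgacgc
Vegfa: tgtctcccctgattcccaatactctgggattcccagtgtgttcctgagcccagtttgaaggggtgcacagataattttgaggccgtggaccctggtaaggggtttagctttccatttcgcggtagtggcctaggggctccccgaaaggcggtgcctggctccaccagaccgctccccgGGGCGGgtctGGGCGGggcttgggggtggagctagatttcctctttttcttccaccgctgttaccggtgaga
Gdnf: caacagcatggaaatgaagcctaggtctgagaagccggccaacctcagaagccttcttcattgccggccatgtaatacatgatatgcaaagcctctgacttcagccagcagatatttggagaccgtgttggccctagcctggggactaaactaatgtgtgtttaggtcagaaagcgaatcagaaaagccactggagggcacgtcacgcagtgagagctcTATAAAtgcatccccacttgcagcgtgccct
The Vegfb window held 4 GC boxes, 2 of them end to end, and 26 CG dinucleotides. Fgf2 had 1 GC box and 20 CG, and Vegfa 2 GC boxes and 11 CG. Gdnf had no GC box and 7 CG, but 1 TATA box. The 2 Pdgfa windows held 19 and 28 CG, so the windows of Vegfb, Fgf2 and Pdgfa exceeded each of the 15 windows of Bdnf, Ntf3, Gdnf, Hgf and Vegfa, which held 1 to 14. Over all 32851 RefSeq windows the median was 6 CG, 32.7% held a GC box and 12.4% a TATA box. The core letters of the hypoxia response element are ACGTG or CACGT, and 16.6% of all windows held them. They were found in the upstream Gdnf and Ntf3 windows and 2 of the 7 Bdnf windows. The most upstream Vegfa window held 0. A match was found only in the second Vegfa window, chr17:46025164-46025413, which lies downstream of the first on the minus strand. These letter matches are a description, and a window without a match says nothing of the factor.

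Pdgfb was by far the most abundant of the 9, and 6 of the 9 genes reached 1 CPM in each of the 4 libraries: Pdgfb, Vegfb, Pdgfa, Fgf2, Hgf and Vegfa. Among 21190 protein-coding genes 51.8% reached that level, so the share of the 9 is not set apart from it. Bdnf and Ntf3 were near the limit of 3 counts (0.105 to 0.129 CPM), and Gdnf was at or under it in every library. The mean levels span about 4 orders of size, from 257 TPM for Pdgfb to 0.0179 for Gdnf. The lower end rests on 2 counts of Gdnf over the 4 libraries, so the span is not exact. TPM, a library-scaled level, divides a count by the summed exon length of the gene and is used here to compare genes, and CPM to follow 1 gene between libraries.

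**Figure D1:**
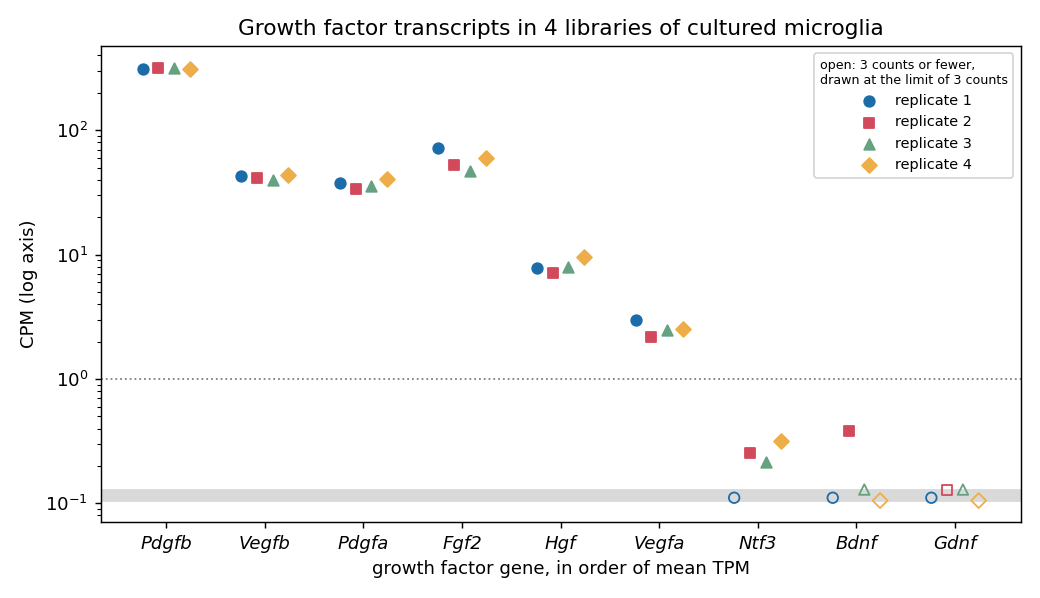
Each marker is 1 library and the vertical log axis is CPM, for the 9 genes in order of mean TPM; open markers are counts of 3 or fewer, drawn at that limit, the grey band is the limit and the dotted line is 1 CPM. Pdgfb lies near 315 CPM in every library with almost no scatter, Fgf2 is spread from 47.3 to 71.7 CPM, and Bdnf, Ntf3 and Gdnf reach the grey band.

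The platelet-derived growth factors were led by Pdgfb, whose product recruits pericytes to vessels through PDGFRβ. Pdgfb was at 312, 317, 319 and 313 CPM in replicates 1 to 4 (315 ± 3.36, SD, n = 4), from counts of 7402 to 8911. No library stood apart. At 257 TPM ± 2.39 it exceeded 97.4% of protein-coding genes and made up 61.0% ± 1.92 of the summed TPM of the 9 genes. Only 23 of 12879 genes tested had a smaller deviance between libraries.

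Pdgfa encodes the other classical chain, a mitogen of oligodendrocyte precursors. It was at 37.5, 33.5, 35.4 and 40.7 CPM, which is 36.8 ± 3.07, and 40.0 TPM ± 3.34. Pdgfb exceeded it in each library, with a TPM ratio of 6.46 ± 0.578 (5.76 to 7.08). Of the exon bases of Pdgfa 26.1% are shared with the antisense gene 6330403L08Rik, at 27.0 CPM ± 1.55, so reads of the pair may not have been told apart. With shared bases left out of the length Pdgfa was 49.8 TPM and the ratio 4.77 ± 0.427.

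Of the vascular factors Vegfb was high and Vegfa low. Vegfb, a ligand of FLT1 and neuropilin 1, was at 43.1, 41.3, 39.8 and 43.8 CPM, with a mean of 42.0 ± 1.82, and at 88.7 TPM ± 4.15. Vegfa, the main angiogenic ligand and a known target of hypoxia-inducible factors, was at 2.96, 2.18, 2.50 and 2.53 CPM, from 51 to 80 counts, and at 2.01 TPM ± 0.273. The exact Poisson 95% interval of its pooled count was 2.25 to 2.89 CPM, covering counting error only. The libraries of the 2 genes did not overlap, and Vegfb was 44.6 ± 5.05 times Vegfa in TPM.

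Fgf2, a heparin-binding mitogen without a classical signal peptide, was the most variable of the detected genes. It was at 71.7, 52.8, 47.3 and 60.2 CPM (58.0 ± 10.6, SD, n = 4), and replicate 1 was highest and replicate 3 lowest. In TPM it was at 29.0 ± 5.55. Nudt6, the antisense gene of Fgf2, overlaps 9.44% of the exon bases of Fgf2, and was at 2.85 to 3.86 CPM. Another overlapping gene, Gm43439, had 0 counts in every library.

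Hgf, the ligand of Met and a mitogen and motogen, was at 7.74, 7.13, 7.93 and 9.55 CPM (8.09 ± 1.04), with replicate 4 highest. Its level of 3.81 TPM ± 0.474 was 5.98 TPM when the length of the longest transcript was used. Gm43489, which overlaps 6.74% of the exon bases of Hgf, had 4 counts over the 4 libraries.

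The neurotrophic factors were scarce. Ntf3, which encodes neurotrophin 3, had 0, 6, 5 and 9 counts in replicates 1 to 4, or 20 in all, a pooled 0.196 CPM with an exact Poisson 95% interval of 0.120 to 0.302. Bdnf, which supports synapses and survival of neurons, had 0, 9, 0 and 2 counts, so 9 of its 11 counts came from replicate 2. Its pooled level was 0.108 CPM (0.0538 to 0.193), and the overlapping antisense gene Gm45346 had 0 counts. Gdnf, a survival factor for midbrain dopamine neurons, had 0, 1, 0 and 1 counts, a pooled 0.0196 CPM (0.00237 to 0.0707). All 3 genes had 0 counts in replicate 1, where the limit of 3 counts is 0.111 CPM and the exact Poisson 95% upper limit of a count of 0 is 0.137 CPM.

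Neighbours in the order of mean TPM were compared in each library as differences of log2(TPM + 1). The order was taken from these same 4 libraries, so a positive mean difference was largely set beforehand. Pdgfb exceeded Vegfb by 1.52 ± 0.0766, Vegfb exceeded Pdgfa by 1.13 ± 0.0780, and Fgf2 exceeded Hgf by 2.63 ± 0.266 (SD, n = 4). Hgf exceeded Vegfa by 0.68 ± 0.162, and Vegfa exceeded Ntf3 by 1.14 ± 0.422. In these 5 pairs the ranges of the 2 genes did not overlap, and the sign was the same in 4 of 4 libraries. Pdgfa exceeded Fgf2 by 0.46 ± 0.212, also in 4 of 4, but the ranges overlapped. The differences of Ntf3 from Bdnf (0.37 ± 0.279, 3 of 4 libraries) and of Bdnf from Gdnf (0.06 ± 0.108, 2 of 4) were positive or 0 in every library, and a difference of 0 came from libraries in which both genes had 0 counts. Leaving out replicate 1 brought the pairs with 1 sign from 6 to 7. The size of the smaller differences depended on the pseudocount. With 0.1 or 10 in place of 1, Vegfa minus Ntf3 was 2.43 or 0.21, Hgf minus Vegfa 0.89 or 0.20, and Ntf3 minus Bdnf 1.44 or 0.05. Bdnf minus Gdnf was 0.30 with 0.1, and Fgf2 minus Hgf 1.49 with 10. With the longest transcript as length, Pdgfa minus Fgf2 was 0.87 and Hgf minus Vegfa 1.27. The exact two-sided sign-flip permutation test with 4 libraries cannot go below 0.13, the p of the 6 pairs with 1 sign, so no pair can pass 0.05; adjusted over the 8 pairs it was 0.17.

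Spread between libraries was tested in edgeR over all genes, with 1 mean per gene. The expected spread was taken from genes of like level in these same 4 libraries. The test thus asks whether a gene varies more than such genes do. Of 12879 genes tested 143 passed at an adjusted p of 0.05, which is 1.11%. Of the 9 growth factors 6 were abundant enough to be tested and 0 passed, and 1, Fgf2, had an unadjusted p under 0.05, as did 6.79% of all genes tested. Its deviance was larger than that of 98.7% of genes tested, with an adjusted p of 0.0794 by edgeR. Over 7 alternatives in edgeR its adjusted p was 0.0788 to 0.795, the highest without replicate 1. DESeq2 dispersion outliers also named 0 of the 9.

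**Figure D2:**
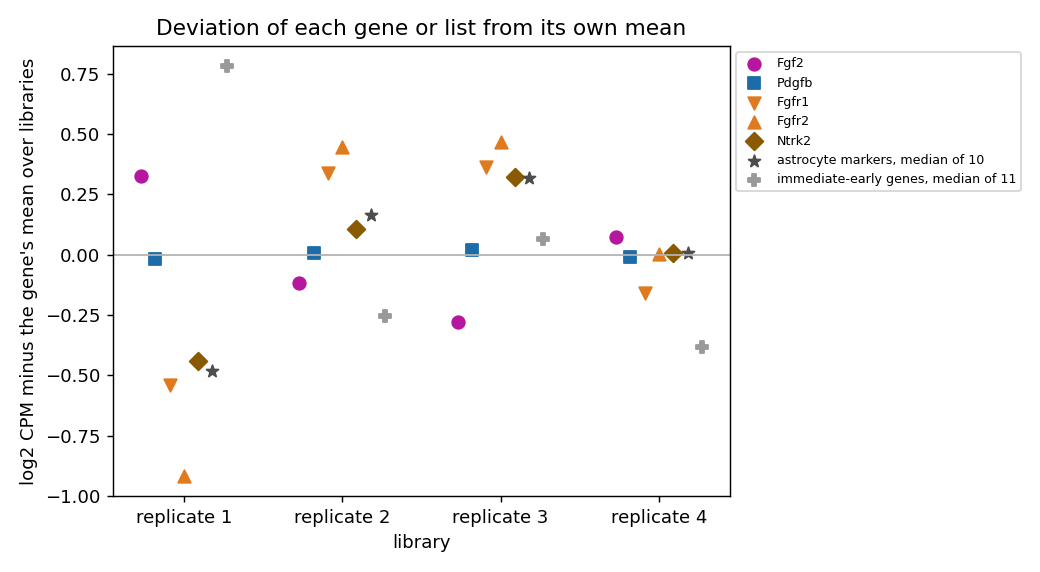
The vertical axis is log2 CPM minus the gene's own mean over the 4 libraries, and the horizontal axis is the library; each marker is a gene, or the median over a list of genes. In replicate 1 Fgf2 and the immediate-early genes lie above 0, and Fgfr1, Fgfr2, Ntrk2 and the astrocyte markers lie below it, while Pdgfb lies within 0.02 of 0 in all libraries.

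Replicate 1 differed from the others in genes that are not growth factors. Of 12 immediate-early genes, the transcription factors and regulators induced within minutes of a stimulus, 9 passed the spread test (Fos, Fosb, Jun, Junb, Egr1, Egr2, Ier2, Ier3 and Dusp1), and all 9 were highest in replicate 1. The summed level was 1500, 861, 1070 and 830 CPM. Without replicate 1, 3 of the 9 passed. Astrocyte markers moved the other way, with 305, 478, 515 and 419 CPM in replicates 1 to 4, and Gfap, Clu and Slc1a3 passed with replicate 1 lowest. None of these 3 passed without replicate 1. Fgf2 had a log2 deviation of 0.32 from its own mean CPM there. The median deviation in replicate 1 was -0.48 for the detected astrocyte markers and 0.78 for the immediate-early genes. It was -0.48 for the 3 detected endothelial markers, Flt1, Kdr and Slco1a4. Of the endothelial markers not detected, Cdh5 was lowest in replicate 1 and Pecam1 highest. Cldn5, Tie1 and Ly6c1 had counts in replicate 1 alone. The 7 detected mural and fibroblast markers had a median deviation of 0.33 but were split. Acta2, Tagln and Pdgfrb were lowest in replicate 1, and Col1a1, Col1a2, Col3a1 and Dcn were above their means there. That list summed to 82.7, 102, 111 and 80.6 CPM in replicates 1 to 4. Acta2, a mural marker, passed the test with 42.8, 57.2, 73.5 and 45.7 CPM, but not without replicate 3. The microglial marker P2ry12 passed as well (edgeR adjusted p = 0.00102), with 236, 185, 164 and 249 CPM, and was lowest in replicate 3, as Fgf2 was. Without replicate 3 or 4 it did not pass. With a common dispersion P2ry12, Clu, Slc1a3, Jun and Junb did not pass (edgeR adjusted p from 0.0672 to 0.329), and Slc1a3 did not pass without replicate 3, nor Fosb and Junb without replicate 4. Their part in the level of Fgf2 was not tested.

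Receptors of the 9 factors were set beside them. Of 23 receptors 12 reached 1 CPM in each library, and the median was 1.55 TPM against 1.68 over all protein-coding genes. The neurotrophin receptors were Ntrk2 at 12.8 TPM ± 2.61, the TrkB receptor of BDNF, and Sort1, which binds proneurotrophins, at 64.3 ± 0.901. Ntrk3 (0.103 TPM ± 0.0301) and Ngfr, which encodes p75 (0.0257 ± 0.0515), were low, and all 3 counts of Ngfr came from replicate 4. Of the GDNF receptors Ret was at 0.0368 TPM ± 0.0326 and the coreceptor Gfra1 at 1.57 ± 0.256. Gfra4 was at 0.853 TPM, Gfra2 at 0.102 (0.0543 without replicate 3) and Gfra3 at 0.0638, with all 4 counts of Gfra3 in replicate 1, and the alternative GDNF receptor Ncam1 at 3.08 ± 0.488.

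The PDGF receptors were scarce beside their ligands. Pdgfra was at 0.0855 TPM ± 0.0562 and Pdgfrb at 2.33 ± 0.289. Both are also markers, of oligodendrocyte precursors and of mural cells. Of the VEGF receptors Flt1, the receptor of VEGFB, was at 18.1 TPM ± 0.839, Kdr, the main signalling receptor of VEGFA, at 6.28 ± 1.55, and the lymphatic receptor Flt4 at 0.0175 ± 0.0350, from replicate 2 alone. The neuropilins, coreceptors shared with semaphorins, were higher, Nrp1 at 126 TPM ± 9.62 and Nrp2 at 56.3 ± 4.22. Flt1 and Kdr were on the endothelial list as well, on which Tek and Emcn had 0 counts, Cdh5 was at 1.07 CPM ± 0.0789 and Pecam1 at 0.498 CPM ± 0.137. The HGF receptor Met was at 0.542 TPM ± 0.202.

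Fgfr1 led the FGF receptors with 9.04 TPM ± 2.50, followed by Fgfr3 at 3.42 ± 0.678, also an astrocyte marker, and Fgfr2 at 2.64 ± 0.976; Fgfr4 had 0 counts. Fgf2 was 3.57 ± 1.76 times Fgfr1 in TPM, and 2.07 times with the longest transcript as length. Of the 14 receptors tested 3 passed the spread test, Fgfr1, Fgfr2 and Ntrk2 (edgeR adjusted p = 0.00783, 0.0355 and 0.0197), and each was lowest in replicate 1. Fgfr1 was at 17.5, 32.3, 32.8 and 22.9 CPM, Fgfr2 at 4.0, 10.3, 10.4 and 7.55, and Ntrk2 at 53.0, 77.4, 89.9 and 72.3. These receptors were low in the library where the summed astrocyte markers were lowest and Fgf2 highest. Lowest there too were the detected endothelial markers Flt1, Kdr and Slco1a4, but Flt1 and Kdr are themselves receptors, and Pecam1 was highest there. The part of RNA from astrocytes and endothelial cells was not tested. Without replicate 1 none of the 3 passed, without replicate 3 none, without replicate 2 only Ntrk2, and without replicate 4 all 3. Fgfr2 was also lost with no filter on low counts (adjusted p = 0.0724) and Ntrk2 with a common dispersion (adjusted p = 0.134).

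**Figure D3:**
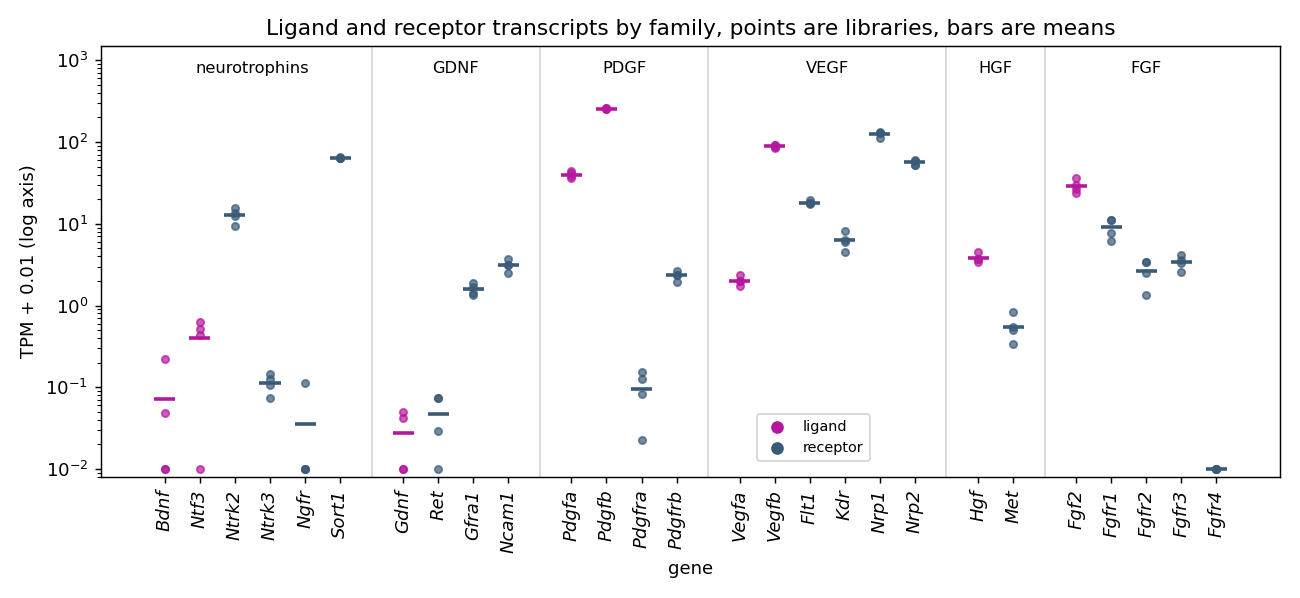
The vertical log axis is TPM plus 0.01 in each library, grouped by factor family, with ligands in magenta, receptors in blue and a bar at the mean; not every receptor is drawn. Pdgfb at 257 TPM stands above Pdgfrb at 2.33, Vegfb at 88.7 above Vegfa at 2.01, while for the neurotrophins the receptors Sort1 and Ntrk2 are above both ligands.

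The families held few other transcribed ligands. Of 22 relatives, whose median was 0.0268 TPM, 3 reached 1 CPM in each library: the PDGF chain Pdgfc at 5.36 TPM ± 1.19, Fgf1 at 4.41 ± 0.837 and Pdgfd at 1.72 ± 0.219. Of the GDNF relatives Nrtn was at 2.22 TPM ± 0.734 but under 1 CPM. The median of the relatives was 0.00828 TPM without replicate 3. Ntf5, Fgf5, Fgf16, Fgf20 and Fgf21 had 0 counts in every library. Fgf2 was 6.94 ± 2.62 times its near relative Fgf1 in TPM. None of the 3 tested relatives passed the spread test.

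Some other trophic ligands were more abundant than any of the 9. Of 23 such ligands 13 were detected, with a median of 2.7 TPM, and none of 15 tested passed the spread test. Psap, whose product prosaposin is a lysosomal precursor with reported neurotrophic activity, was at 4410 TPM ± 209. Progranulin, from Grn, was at 1325 ± 68.5, and Igf1, a microglial trophic factor, at 197 ± 21.3, which is 0.767 ± 0.0872 of Pdgfb. Manf, a neurotrophic factor of the endoplasmic reticulum, was at 97.3 ± 9.94, and Ereg (0.0175 TPM, from replicate 2 alone) and Btc (0.0145 TPM, 0.00872 without replicate 2) were lowest.

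**Figure D4:**
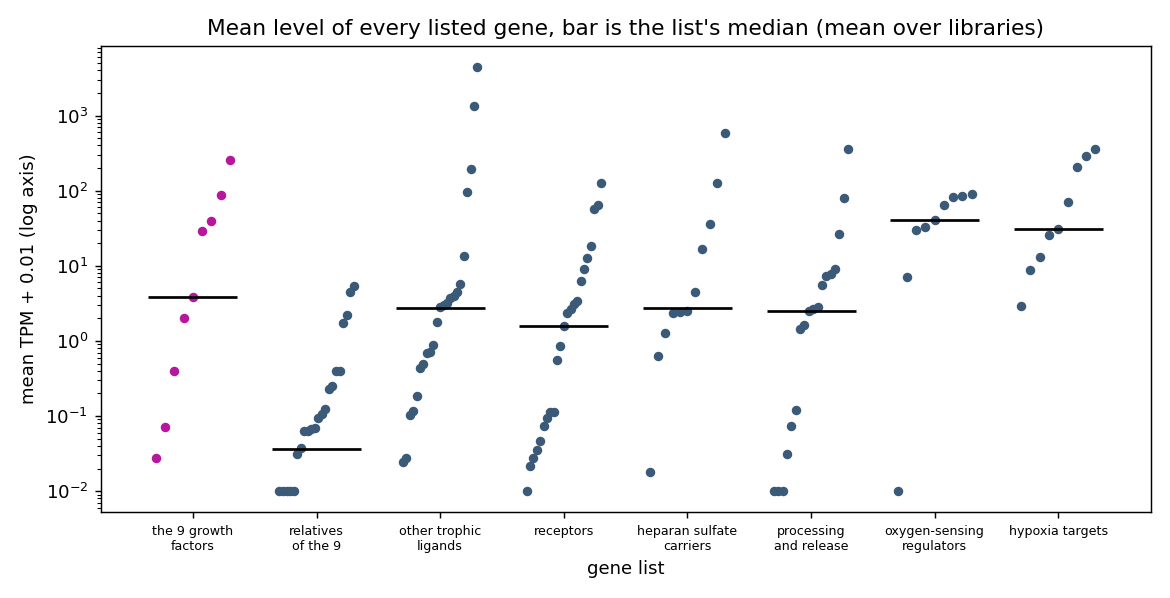
Each point is a gene, the vertical log axis is its mean TPM over the 4 libraries plus 0.01, and the bar is the list's median TPM averaged over libraries. The 9 growth factors span about 4 orders of size, with a lower end that rests on 2 counts of Gdnf. Their relatives lie low with a median of 0.0268 TPM, and the oxygen-sensing regulators have a median of 40.7 TPM. Immediate-early genes and cell type markers are not drawn.

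Heparan sulfate carriers hold FGF2, VEGFA and HGF near cells. Of 11 such genes 9 were detected, with a median of 2.76 TPM, led by the syndecans Sdc3 at 594 TPM ± 22.5 and Sdc4 at 127 ± 13.2, then the glypican Gpc4 at 35.5 ± 9.53 and Sdc2 at 16.7 ± 3.01. Gpc3 (0.611 TPM) and Gpc5 (0.00809 TPM, from replicate 2 alone) were lowest. Of the 9 tested, Gpc4 passed the spread test (edgeR adjusted p = 0.0306), and it lost the call without replicate 1, 3 or 4.

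Processing and release genes include the proteases that cleave proneurotrophins and HGF. Of 18 genes 12 were detected (median 2.46 TPM), and none of 12 tested passed the spread test. Plau, the urokinase activator of plasminogen and HGF, was at 363 TPM ± 23.9. The proprotein convertases Furin and Pcsk7, which act on PDGF and neurotrophin precursors, were at 79.5 ± 2.90 and 26.9 ± 1.34, and Adamts1, a protease that binds VEGF, at 9.08 ± 1.35. Plg, Mmp3 and Mmp7 had 0 counts.

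Transcripts of oxygen-sensing genes were read as well, and a link between them and the level of Vegfa was not tested. Of 9 regulators 8 were detected, with a median of 40.7 TPM: the oxygen sensors Egln1 at 89.3 TPM ± 3.47 and Egln2 at 82.1 ± 2.45, Vhl, which targets HIF1α for degradation, at 85.3 ± 3.28, and Hif1a itself at 65.0 ± 5.22. The HIF-inducible sensor Egln3 was at 7.11 TPM and Hif3a had 0 counts. All 10 hypoxia targets were detected, and the median over the 9 with a known length, all but Ero1a, was 31.3 TPM. Glycolytic Pgk1 (363 TPM ± 20.6) and Ldha (287 ± 16.6), and P4ha1 (209 ± 4.97) and the glucose transporter Slc2a1 (69.9 ± 6.65) led, and Car9 (8.65 TPM) and Ankrd37 (2.92 TPM) were lowest. None of the 8 regulators and 10 targets tested passed the spread test.

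Genes whose level was nearest to that of the 2 most abundant members were found by the root mean square difference of log2(TPM + 1) over the 4 libraries. For Pdgfb these were Dok3 (0.00838), Ptprj (0.0290) and Vdac1 (0.0342), and for Vegfb Rhoq (0.0326), Rab14 (0.0371) and Ttc28 (0.0390).

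Among markers of other cells, the highest of the astrocyte list were Clu (210 TPM), Gfap (50.3) and Aqp4 (18.5), and of the oligodendrocyte list Cnp (99.3), Mbp (43.9) and Olig1 (14.4), while Mog had 0 counts. On the mural and fibroblast list Acta2 (84.5 TPM), Tagln (28.7) and Col1a1 (2.57) led. Rgs5 (0.147 TPM, 0.0744 without replicate 1) and Kcnj8 (0.0464 TPM, from replicate 4 alone) were the lowest of that list. On the endothelial list Flt1 was followed by Slco1a4 (15.6) and Kdr, and on the neuronal list Map2 (2.53) by Tubb3 (1.06) and Nefl (0.0631), with Snap25 at 0. Tubb3 had 51, 3, 5 and 2 counts and was at 0.249 TPM without replicate 1, and Nefl at 0.0268 TPM without replicate 3. On the microglial list Fcrls was at 5346 TPM and Csf1r at 2830. The share of the 9 growth factors' transcripts that came from other cells was not tested.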

How the data were processed

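The authors deposited raw counts per gene symbol, 1 file per library. The submitters' processing notes name HTSeq 0.11.2, STAR 2.7.10a and SAMtools 1.16.1, with build mm39 (GRCm39). Annotation release, strand setting and overlap mode: not given in the sources used here. Each file's 5 summary lines (11.6% to 12.0% of reads) were left out, and 0 columns belonged to no sample.

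CPM and TPM were computed here with merged exon lengths of GENCODE M21 (GRCm38), matched by symbol for 89.1% of genes holding 98.8% of counts; Ero1a had no length. Spread was tested in edgeR 4.0.16 (R 4.3.3; TMM, filterByExpr, trended dispersion, deviance against chi-square with 3 degrees of freedom, Benjamini-Hochberg) and checked on simulated data; DESeq2 1.42.0 was an alternative. Detected means 1 CPM in every library. A count of 0 allows 3 counts; limits and intervals cover counting error only. The members and lists were chosen with earlier results of these data known. All members and the receptors are named, with each pathway list's 4 highest, 2 lowest and called genes, the 3 highest and the zero-count markers, genes overlapping a member, and the 3 nearest genes of the top 2 members. Ddx3y, Xist, Nr4a1, P2ry12, Acta2, Rgs5, Kcnj8, Cdh5 and Pecam1 were named or singled out after their values were seen. Some genes that this rule takes are not reported here but stay in the counts.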

Additional observations from a re-analysis of the deposited data

Results flagged for a closer look

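Of 63 genes looked at for 1 library far from the other 3, 6 passed Dixon's 95% limit, where chance gives about 5%, and none of the 9 growth factors was among them. The gap as a share of the range was 0.916 for Nrtn (0.333, 0.768, 0.775 and 0.808 CPM in replicates 1 to 4), 0.895 for Gpc3 (0.740, 0.384, 0.388 and 0.421 CPM) and 0.857 for Nrp1 (379, 379, 324 and 371 CPM). Nrtn and Gpc3 rest on few counts, 9, 18, 18 and 23 for Nrtn and 20, 9, 9 and 12 for Gpc3. Neither was abundant enough for the spread test. The gap was 0.873 for Nr4a1, 0.843 for Egr2 and 0.830 for Egr1, which are among the immediate-early genes that were highest in replicate 1. Replicate 1 is the distant library for all of these except Nrp1, where replicate 3 was low.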

How the results depend on the processing

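The count of 6 growth factors at 1 CPM or more held under every threshold, scaling and left-out library tried, and 0 passed the spread test under every alternative. A lower threshold or a left-out library cannot reduce the count of 6, and no CPM threshold above 1 was tried. Vegfa, the lowest of the 6, was at 2.18 CPM in replicate 2. On CPM without gene length, Pdgfa minus Fgf2 reversed to -0.63 log2 units, Vegfb minus Pdgfa was 0.19, Pdgfb minus Vegfb 2.88 and Hgf minus Vegfa 1.36. The count of all genes passing the spread test was 532 with a common dispersion, against 143, and 47 to 118 when 1 library was left out, the lowest without replicate 1, with 52 without replicate 3. Of the single values, 143 stayed within 1 SD of the main value, 32 moved further and 1 changed sign. The 143 include the means with 1 library left out. With 4 libraries such a mean cannot move by 1 SD, so the 143 is no measure of stability. Levels under 3 counts per library cannot be ordered at this depth. No paired analysis was possible because there is only 1 group.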
